A study of Homo sapiens with 43 samples.

Results

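The genes described here are 9 genes of heme synthesis, ALAS1, ALAS2, SLC25A38, ALAD, UROS, UROD, CPOX, PPOX and FECH, chosen by name among the 58347 gene entries of the RNA-seq count table, by a rule that uses no measured value but was set with earlier results of these data known. All 9 passed the filter on low counts, as did 21300 entries in all. They were measured in HEL, an erythroleukemia line of human origin that carries an activating JAK2 mutation and expresses erythroid and megakaryocytic genes. Each of 3 stable lines carried a transduced U2AF1, either with the S34F or the Q157R substitution found in myeloid cancers or wild-type (WT). U2AF1 is the small subunit of the U2 auxiliary factor, which binds the 3′ ends of introns. The transduced protein was induced with doxycycline, 1 µg/ml, and cells were taken after 48 hours. RNA-seq after depletion of ribosomal RNA covered induced S34F (2 libraries), induced Q157R (2), induced WT (2), uninduced S34F (1), uninduced Q157R (1) and uninduced WT cells (2). Uninduced cells carried the same transduced gene and had no doxycycline in their labels. The labels do not say whether a line was a clone or a pool, nor which promoter drove the gene, and the parental HEL line was not analysed here. They call the replicates biological without saying that these were separate cultures, so p-values measure only the spread between these libraries, which may be technical in part.

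Heme is built from glycine and succinyl-CoA by a chain of enzymes that begins and ends in mitochondria and passes through the cytosol. The first step, made by 5-aminolevulinate synthase, limits the rate. It is carried out by ALAS1 in most tissues and by ALAS2 in developing red cells, where GATA1 drives ALAS2 transcription and iron-responsive proteins control its translation. ALAS2, ALAD, UROS, UROD, CPOX, PPOX and FECH are each mutated in an inherited porphyria, and ALAS2 and SLC25A38 in congenital sideroblastic anemia. The enzyme step between ALAD and UROS is not among the listed genes and was not analysed here.

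The RNA-seq libraries held 22392303 to 40370092 counts in genes. Of the erythroid markers 13 of 15 stood at 1 CPM (read counts scaled to library size) or more in every library, among them GATA1 and KLF1, but AHSP never exceeded 0.0249 CPM. Of the megakaryocyte markers 8 of 11 reached that level in every library, as did 2 of 10 monocyte and granulocyte markers, 1 of 8 lymphoid markers and 2 of 7 stromal and epithelial markers. Reads outside annotated features made up 33.6 ± 0.140% (SD, n = 2) of reads in induced S34F cells, 25.1 ± 2.65% (n = 2) in induced Q157R cells and 22.7 ± 0.0289% (n = 2) in induced WT cells, against 19.0% to 20.6% in the 4 uninduced libraries. Their part in the results was not tested. The U2AF1 entry did not show the transgene: it held 18.0 and 19.4 CPM in induced S34F, 21.5 and 15.2 CPM in induced Q157R, 19.1 and 11.0 CPM in induced WT, 21.2 CPM in uninduced S34F, 22.1 CPM in uninduced Q157R, and 13.4 and 12.6 CPM in uninduced WT cells. In no line did both induced libraries stand above all uninduced ones in this entry, and a near-identical annotated copy, U2AF1L5, can take reads from it. All values are of whole cultures, in which fewer cells of a type and less RNA per cell cannot be told apart.

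Levels were compared between genes as CPM per kilobase of the main transcript. UROD, which decarboxylates uroporphyrinogen, was the most abundant, with a median over the 10 libraries of 287 CPM per kb (175 to 347). CPOX, the mitochondrial oxidase that follows it, came next with 56.8 (30.3 to 64.4), and UROS, which closes the tetrapyrrole ring, with 50.3 (29.6 to 57.4). Below these stood FECH, which inserts iron into protoporphyrin, with 20.7 CPM per kb (17.6 to 24.7), ALAS1 with 19.7 (16.2 to 22.5), PPOX, the last oxidase before FECH, with 17.8 (10.9 to 25.1), and SLC25A38, the mitochondrial glycine carrier, with 11.9 (9.94 to 15.4). ALAD, which joins a pair of 5-aminolevulinate molecules into porphobilinogen, had 5.75 CPM per kb (4.98 to 12.8), and ALAS2 had 4.39 (1.50 to 10.2). Ranges of neighbours in this order overlapped except between UROD and CPOX and between UROS and FECH. With the union of all exons as the length, UROS, whose annotated isoforms together span 9532 bp against 1342 bp for its main transcript, moved to place 6. ALAS1 then stood in place 3, SLC25A38 in place 5 and PPOX in place 7. ALAS2, in place 8, stood above ALAD, in place 9, while UROD, CPOX and FECH kept their places.

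**Figure D1:**
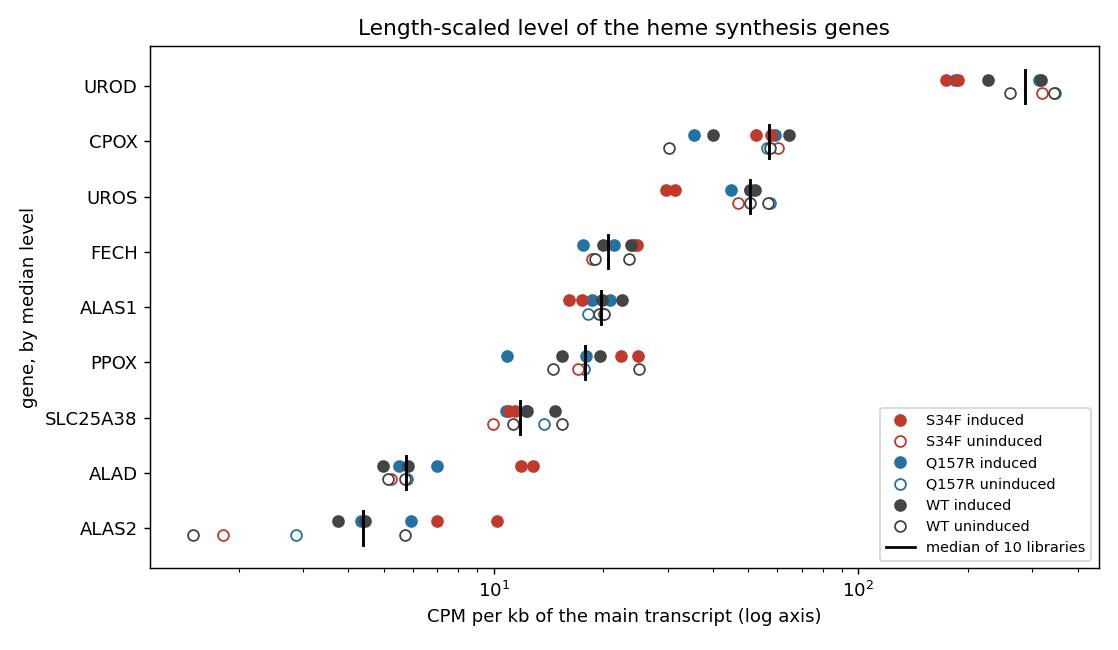
Length-scaled level of each gene in CPM per kb of the main transcript, on a log axis, with 1 point per RNA-seq library (filled, induced; open, uninduced) and a bar at the median of 10 libraries. UROD lies above all other genes, and the points of ALAS2 and ALAD in induced S34F cells lie to the right of the other libraries.

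The tissue-wide and the erythroid first enzymes differed in how steady they were. Between its lowest and highest library ALAS1 varied 1.39-fold and ALAS2 varied 6.81-fold. The ratio of ALAS1 to ALAS2, per kilobase, was 1.58 and 2.504 in induced S34F cells, 3.15 and 4.83 in induced Q157R cells and 4.46 and 6.01 in induced WT cells. It was 11.0 in uninduced S34F cells, 6.33 in uninduced Q157R cells and 13.0 and 3.52 in uninduced WT cells. ALAS1 thus exceeded ALAS2 in all 10 libraries, and by the least in induced S34F cells.

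Promoter windows are shown for ALAS2 and ALAD, the members with the highest ratio of induced S34F to induced WT level, and for ALAS1 as the counterpart of ALAS2. They are RefSeq sequences on GRCh38.p14, from 250 bases before to 50 after an annotated start, and 8 of the 9 genes had at least 1 window. Capitals mark GATAA, one form of the site recognised by GATA factors, and CCNCNCCC, the core recognised by KLF factors, each searched on both strands. The form GATAG was not searched or marked. No match of either motif overlapped the other. ALAS2 lies at chrX:55009055-55031064 on the minus strand, ALAD at chr9:113386317-113401333 on the minus strand and ALAS1 at chr3:52198086-52214327 on the plus strand. The windows are chrX:55030928-55031227 for ALAS2, chr9:113401235-113401534 for the upstream start of ALAD, chr9:113401071-113401370 for its downstream start, and chr3:52197833-52198132 for ALAS1.
ALAS2: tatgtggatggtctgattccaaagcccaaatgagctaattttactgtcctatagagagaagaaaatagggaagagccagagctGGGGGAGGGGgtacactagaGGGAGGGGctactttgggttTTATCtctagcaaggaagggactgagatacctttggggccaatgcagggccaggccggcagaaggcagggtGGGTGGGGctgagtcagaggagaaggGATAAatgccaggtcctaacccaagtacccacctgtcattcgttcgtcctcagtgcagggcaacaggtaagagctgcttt
ALAD upstream start: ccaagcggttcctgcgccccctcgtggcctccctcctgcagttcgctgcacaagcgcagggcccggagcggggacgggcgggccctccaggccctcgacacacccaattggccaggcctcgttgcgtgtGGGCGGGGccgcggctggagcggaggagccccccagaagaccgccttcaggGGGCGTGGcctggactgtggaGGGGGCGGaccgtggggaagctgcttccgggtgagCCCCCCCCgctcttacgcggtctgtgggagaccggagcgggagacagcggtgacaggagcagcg
ALAD downstream start: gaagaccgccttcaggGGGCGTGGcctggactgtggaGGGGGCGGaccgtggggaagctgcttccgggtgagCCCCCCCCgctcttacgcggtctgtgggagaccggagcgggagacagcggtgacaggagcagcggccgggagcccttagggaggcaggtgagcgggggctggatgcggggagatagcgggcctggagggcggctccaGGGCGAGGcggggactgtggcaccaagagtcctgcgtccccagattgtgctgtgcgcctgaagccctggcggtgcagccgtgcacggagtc
ALAS1: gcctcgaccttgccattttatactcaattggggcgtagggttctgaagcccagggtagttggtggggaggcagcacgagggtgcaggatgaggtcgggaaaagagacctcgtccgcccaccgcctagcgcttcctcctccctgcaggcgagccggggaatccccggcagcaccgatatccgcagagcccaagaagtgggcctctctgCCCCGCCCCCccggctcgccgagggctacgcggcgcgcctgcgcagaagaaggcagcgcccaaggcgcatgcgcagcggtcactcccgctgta
The ALAS2 window held 2 matches to GATAA, 1 on each strand, and 4 to CCNCNCCC, some of which overlap each other. Both ALAD windows held none to GATAA and 4 to CCNCNCCC. The ALAD downstream window does hold the unmarked form GATAG, so a window without GATAA is not a window without a GATA site. The ALAD windows overlap, so some of their matches are the same sites. The ALAS1 window held none to GATAA and 2, which overlap each other, to CCNCNCCC. Among all 35116 windows of the table, 22.7% held GATAA and 56.2% held CCNCNCCC, so either match is common. CPOX and 1 of the windows of PPOX also held GATAA. A match describes the letters in the window and does not show that a factor binds there.

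**Figure D2:**
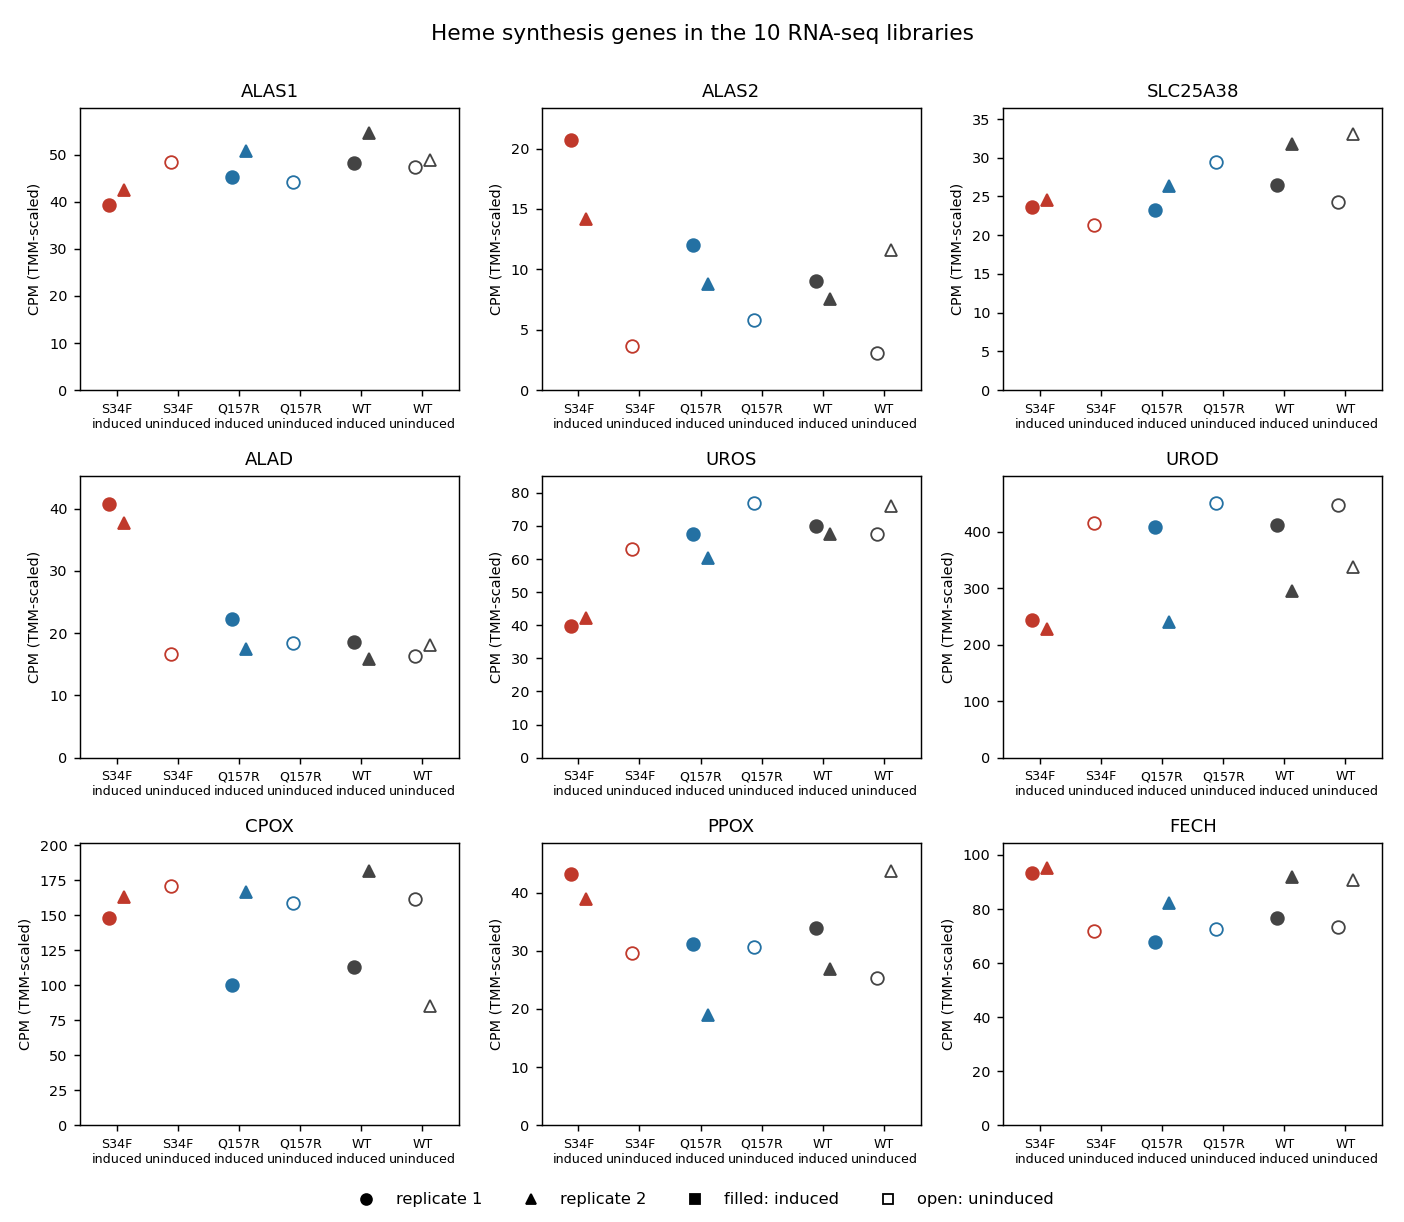
CPM (scaled by TMM, from 0) of the 9 genes in each RNA-seq library, by line and induction; circles are replicate 1 and triangles replicate 2, filled for induced and open for uninduced cells. ALAD in induced S34F cells (40.7 and 37.7 CPM) lies above its other 8 libraries, and UROS in induced S34F cells (39.8 and 42.3 CPM) below them.

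The first comparison set induced S34F cells against induced WT cells. Each form of U2AF1 was carried by its own line. In comparisons between lines, the mutation and other differences between the lines therefore cannot be told apart. Of the 9 genes, ALAD passed the test, as higher in S34F, and the other 8 did not. The edgeR quasi-likelihood test called 1.67% of all genes in this comparison (356 of 21300, 145 higher and 211 lower). With the replicate number as a block, 3 of the 9 were called, ALAD as higher and UROS and UROD as lower, against 22.4% of all genes. The median log2 fold change of the 9 genes was 0.07, against 0.00 over all genes and -0.16 over the 13602 protein-coding genes. For 8 of the 9 genes the libraries of both groups did not overlap, which was true of 56.2% of all genes.

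ALAD had 40.7 and 37.7 CPM in induced S34F cells, against 18.5 and 15.8 CPM in induced WT cells. The induced Q157R libraries held 22.3 and 17.5 CPM and the uninduced ones 16.6 (S34F), 18.4 (Q157R), and 16.3 and 18.1 CPM (WT). Both induced S34F libraries thus stood above all 8 others, which lay close together. The log2 fold change of S34F over WT was 1.19 ± 0.20 (SE), a 2.28-fold higher level, with an adjusted p of 0.0443 by edgeR and 0.00125 with the replicate block. Leaving out any 1 of the 4 libraries kept the log2 fold change between 1.06 and 1.31, but the adjusted p became 0.128 to 0.359, in fits where no gene at all was called. With only these 4 libraries in the fit the adjusted p was 0.0760.

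ALAS2 had 20.7 and 14.2 CPM in induced S34F cells, against 9.02 and 7.58 CPM in induced WT cells. Induced Q157R cells had 12.0 and 8.76 CPM, uninduced S34F cells 3.66, uninduced Q157R cells 5.83, and uninduced WT cells 3.05 and 11.6 CPM. The induced S34F libraries were the highest of the 10. Yet on the log2 scale the uninduced WT replicates differed by 1.93, more than the induced groups differed from each other. The log2 fold change of S34F over WT was 1.07 ± 0.53, with an adjusted p of 0.267 by edgeR. ALAS1 had 39.3 and 42.5 CPM in induced S34F cells, against 48.2 and 54.7 CPM in induced WT cells, a log2 fold change of -0.33 ± 0.16 with an adjusted p of 0.265. The induced S34F libraries held the lowest ALAS1 values of all 10.

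UROS and UROD, which close and trim the tetrapyrrole ring, did not pass the test without the block, and both passed it with the block as lower in S34F. UROS (chr10:125784980-125823285, minus strand) had 39.8 and 42.3 CPM in induced S34F cells, against 70.0 and 67.6 CPM in induced WT cells. All 8 libraries other than induced S34F lay between 60.3 and 77.1 CPM, well clear of both S34F values. The log2 fold change was -0.74 ± 0.16, with an adjusted p of 0.0595 by edgeR, of 0.00503 with the replicate block (-0.74 ± 0.15, 1.68-fold lower) and of 0.00828 by DESeq2. UROD (chr1:45012147-45015575, plus strand) had 244 and 227 CPM in induced S34F cells, against 412 and 295 CPM in induced WT cells. Its second replicate was the lower one in all 4 groups with a pair, and induced Q157R replicate 2, at 240 CPM, lay between the S34F libraries. The log2 fold change of UROD was -0.59 ± 0.28 with an adjusted p of 0.255, and -0.56 ± 0.16 with an adjusted p of 0.0258 with the block. Without induced WT replicate 1 the UROD value shrank to -0.32.

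The last steps, which oxidise the ring and insert iron, gave no call. CPOX (chr3:98579446-98593723, minus strand) had 148 and 163 CPM in induced S34F cells, against 113 and 182 CPM in induced WT cells, so that both S34F values lay within the WT pair. Its log2 fold change of 0.07 ± 0.37 turned to -0.23 without induced WT replicate 1. PPOX (chr1:161166410-161178013, plus strand) had 43.2 and 39.0 CPM in induced S34F cells, against 33.99 and 26.8 CPM in induced WT cells, a log2 fold change of 0.43 ± 0.32 with an adjusted p of 0.439, and of 0.25 without induced WT replicate 2. Annotated exons of PPOX share 1118 bp with B4GALT3 on the opposite strand, and without a stated strand setting reads from the shared stretch cannot be told apart. FECH (chr18:57548283-57586772, minus strand) had 93.4 and 95.3 CPM in induced S34F cells, against 76.7 and 91.9 CPM in induced WT cells, a log2 fold change of 0.16 ± 0.19 with an adjusted p of 0.627, which was 0.04 without induced WT replicate 1 and 0.28 without replicate 2. The glycine carrier SLC25A38 (chr3:39383324-39397351, plus strand) had 23.6 and 24.6 CPM in induced S34F cells, against 26.5 and 31.7 CPM in induced WT cells, a log2 fold change of -0.27 ± 0.21 with an adjusted p of 0.461, and of -0.16 without induced WT replicate 2.

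**Figure D3:**
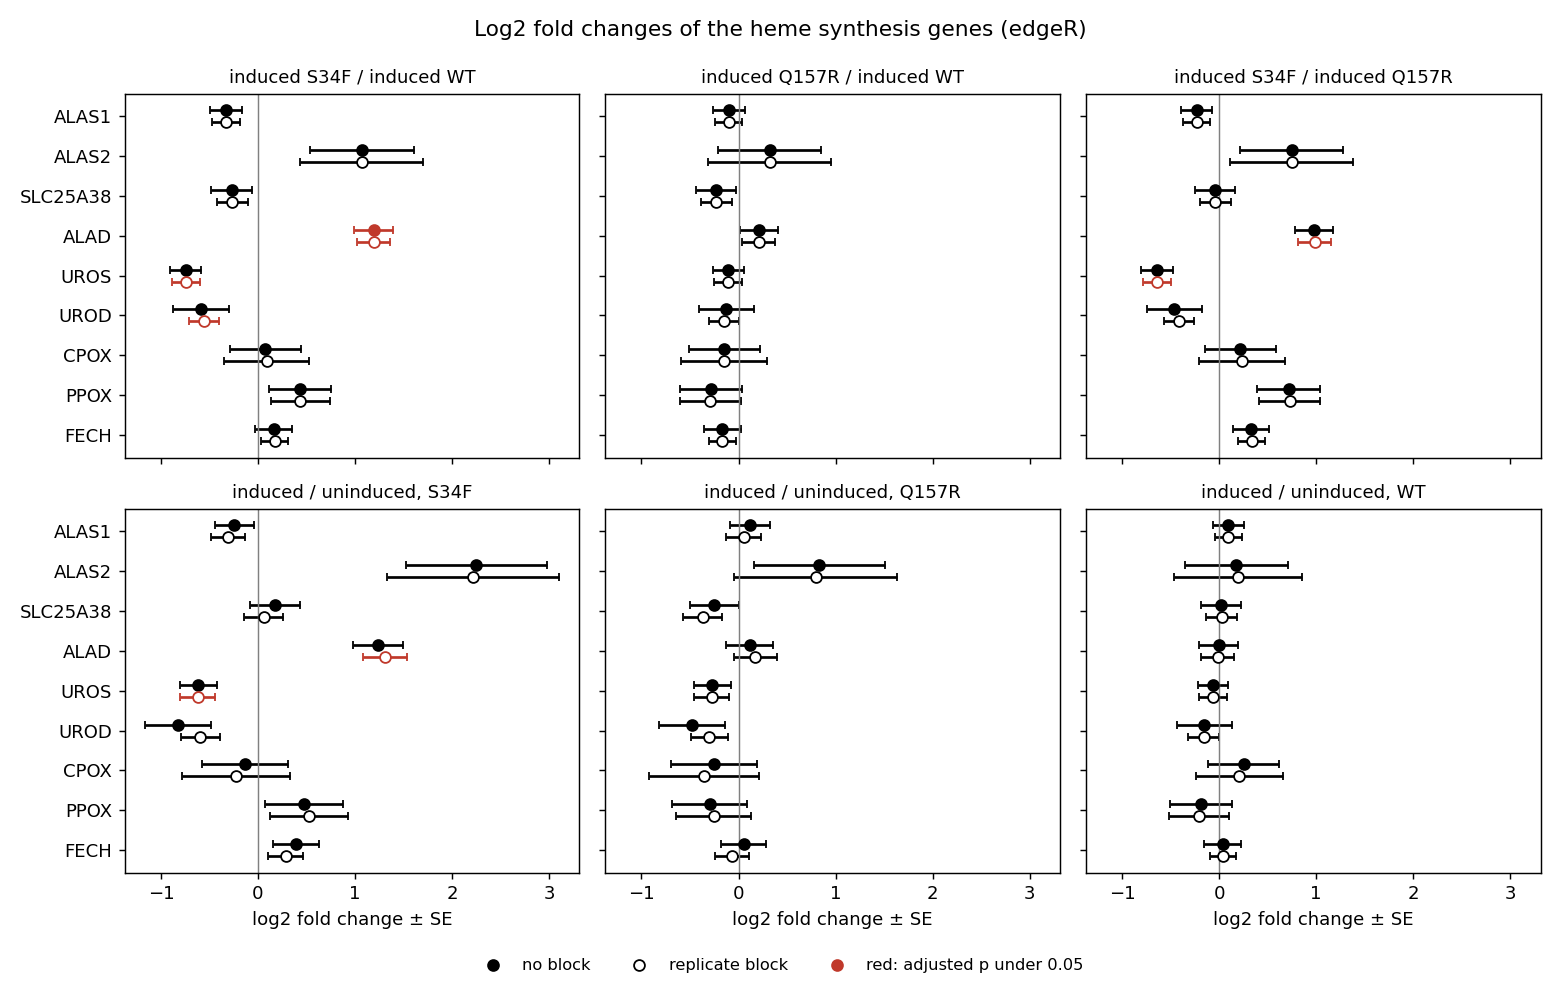
Log2 fold change ± SE of each gene from edgeR in 6 comparisons, named above each panel as group over group, without (filled) and with (open) the replicate block; red marks an adjusted p under 0.05. ALAD (1.19) is the red filled point, in induced S34F over induced WT, and the points of induced Q157R over induced WT lie between -0.28 and 0.32.

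Within the S34F line, 2 induced libraries were set against 1 uninduced library. The spread came from all groups with 2 libraries, induced S34F among them. None of the 9 genes was called by edgeR, against 1.96% of all genes. Of the 9, 4 stood at an unadjusted p under 0.05, against 25.2% of all genes, and DESeq2 called 2, against 8.69% of all genes. ALAD, at 40.7 and 37.7 CPM in induced against 16.6 CPM in uninduced S34F cells, had a log2 fold change of 1.24 ± 0.26 with an adjusted p of 0.0554. ALAS2, at 20.7 and 14.2 CPM against 3.66 CPM, had the widest one, 2.25 ± 0.73, with an adjusted p of 0.118 by edgeR and 0.00762 by DESeq2. UROS, at 39.8 and 42.3 CPM against 62.9 CPM, had -0.62 ± 0.19 (adjusted p of 0.109), and UROD, at 244 and 227 CPM against 416 CPM, had -0.82 ± 0.34 (adjusted p of 0.181). With the replicate block 2 of the 9 were called, against 19.2% of all genes: ALAD (1.30 ± 0.23, adjusted p of 0.00367) and UROS (-0.62 ± 0.18, adjusted p of 0.0344).

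Induction in the WT line gave small mean changes in these genes, but for some of them like-numbered libraries moved in opposite directions. ALAS2 went from 3.05 to 9.02 CPM in replicate 1 and from 11.6 to 7.58 CPM in replicate 2. CPOX went from 162 to 113 CPM and from 85.4 to 182 CPM. ALAS1 and FECH rose and UROD fell in both replicates. The edgeR test called none of the 9 and 0% of all genes, no member reached an unadjusted p under 0.05, and by DESeq2 none of the 9 and 33 genes in all were called. Log2 fold changes of the 9 ran from -0.18 to 0.25 in WT cells. In the Q157R line they ran from -0.48 to 0.83, again with none of the 9 and 0% of all genes called by edgeR, none of the 9 at an unadjusted p under 0.05 and none called by DESeq2, which called 74 genes in all. The difference between the responses was tested itself, as induction in S34F minus induction in WT: it was 1.24 ± 0.32 for ALAD (adjusted p of 0.589 by edgeR) and 2.07 ± 0.88 for ALAS2 (adjusted p of 0.606; 0.80 to 2.71 over the alternatives). No gene passed in that test (0% of all genes called), 2 of the 9 reached an unadjusted p under 0.05 (8.19% of all genes did), and by DESeq2 none of the 9 and 27 genes in all were called. For UROS the difference was -0.55 ± 0.25 and for UROD -0.67 ± 0.44, with adjusted p-values of 0.620 and 0.706; that of UROD was -0.43 with the block and -0.41 without induced WT replicate 1. With the block the adjusted p of ALAD was 0.0613, none of the 9 was called and 0.704% of all genes were. The same difference for Q157R was called for none of the 9 and 0% of all genes, with none of the 9 at an unadjusted p under 0.05 and no gene called by DESeq2.

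Both mutants were then compared with each other and Q157R with WT. These comparisons share libraries with those above and do not stand as separate evidence. Between induced S34F and induced Q157R cells none of the 9 genes was called by edgeR, against 0.559% of all genes. Of the 9, 2 stood at an unadjusted p under 0.05, against 21.5% of all genes and so at about the same share, and DESeq2 called 2, against 6.25% of all genes. ALAD differed by 0.98 ± 0.20 on the log2 scale (40.7 and 37.7 CPM in S34F, against 22.3 and 17.5 CPM in Q157R), with an adjusted p of 0.0623. UROS differed by -0.64 ± 0.16 (39.8 and 42.3 CPM, against 67.6 and 60.3 CPM), with an adjusted p of 0.0889. With the block both were called, with adjusted p-values of 0.00343 and 0.0118, against 20% of all genes. PPOX differed by 0.72 ± 0.32 (43.2 and 39.0 CPM in S34F, against 31.1 and 18.9 CPM in Q157R), with an adjusted p of 0.243, and by 1.12 without Q157R replicate 1 and 0.37 without Q157R replicate 2. UROD differed by -0.46 ± 0.28 (244 and 227 CPM, against 408 and 240 CPM), with an adjusted p of 0.383 and a range of -0.82 to -0.03 over the alternatives.

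Between induced Q157R and induced WT cells the log2 fold changes of the 9 genes ran from -0.28 for PPOX to 0.32 for ALAS2, with a median of -0.13. None of the 9 was called by edgeR or DESeq2 or had an unadjusted p under 0.05, edgeR called 0% of all genes and DESeq2 called 3. The libraries of both groups did not overlap for 1 of the 9 genes, against 26.4% of all genes. Before induction, 1 S34F library and 1 Q157R library could be set against the WT pair. In both comparisons edgeR and DESeq2 called none of the 9 genes and no gene at all (0% for edgeR), and none of the 9 reached an unadjusted p under 0.05. The widest uninduced value was that of ALAS2, at 3.66 CPM in S34F cells, against 3.05 and 11.6 CPM in WT cells.

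Some members differed more between replicates than between lines. CPOX had 99.9 and 166 CPM in induced Q157R cells, 113 and 182 CPM in induced WT cells, and 162 and 85.4 CPM in uninduced WT cells, in the order of replicates 1 and 2, so that the WT pairs ran in opposite directions. PPOX in the same groups had 31.1 and 18.9, 33.99 and 26.8, and 25.3 and 43.7 CPM, which in each pair ran the opposite way to CPOX. FECH was higher in replicate 2 in all 4 groups with a pair, as were ALAS1 and SLC25A38, and UROD was lower. In induced S34F cells replicate 2 minus replicate 1 lay between -0.15 (PPOX) and 0.14 (CPOX) on the log2 scale for 8 genes and was -0.55 for ALAS2. Across the 10 libraries, which share lines and replicate numbers, Pearson's r of log2 CPM was -0.89 between ALAD and UROS, -0.85 between ALAS1 and ALAD, -0.83 between UROD and FECH, and 0.75 both between ALAS2 and ALAD and between UROS and UROD. These coefficients describe the 10 libraries and carry no test.

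The protein-coding genes whose level was most like that of ALAS1 over the 10 libraries, among 9732 with a mean log2 CPM of at least 3, were LIMCH1, TMED9, NR1H2, SEC23B and RNH1 (r of 0.968 to 0.976). For ALAS2 they were INPP1, FAM219B, SPAG6, DHRS11 and ASPSCR1 (r of 0.940 to 0.963). No gene stood in both groups of 5, and none was another heme synthesis gene.

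Other genes of heme and iron metabolism were read from 5 lists in the same comparison of induced S34F with induced WT cells. Here edgeR called 1.67% of all genes without the block and 22.4% with it. DESeq2 called 7.79% of all genes, and 23.3% stood at an unadjusted p under 0.05 by edgeR. The median log2 fold change was 0.00 over all genes and -0.16 over protein-coding genes. Of 18 tested genes that move, sense or break down heme, 1 was called without the block, as lower, and 7 with it, 1 higher and 6 lower; the median log2 fold change was -0.56. The called gene was ABCB10, a mitochondrial inner-membrane transporter needed for hemoglobin production in mouse erythroid cells, with 25.0 and 24.1 CPM in induced S34F cells, against 51.6 and 60.4 CPM in induced WT cells. Its log2 fold change was -1.19 ± 0.21 with an adjusted p of 0.0448 by edgeR. Uninduced cells had 77.2 CPM (S34F), 82.7 CPM (Q157R), and 70.3 and 79.6 CPM (WT), so that the induced S34F libraries were the lowest of the 10.

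Of 11 erythroid transcription factors 1 was called without the block, as lower, and 4 with it, all lower, with a median of -0.19. The called gene was GFI1B, a repressor needed for erythroid and megakaryocytic development, with 77.6 and 121 CPM in induced S34F cells, against 242 and 317 CPM in induced WT cells (-1.49 ± 0.26, adjusted p of 0.0448 by edgeR). The other 3 called with the block were GATA1, NFE2 and LMO2, named here after their values were seen. GATA1, which drives ALAS2 and other heme genes, had 146 and 154 CPM in induced S34F cells, against 213 and 224 CPM in induced WT cells, with adjusted p-values of 0.0871 without and 0.0115 with the block. KLF1 was called in neither fit. The lower GATA1 values and the higher ALAS2 and ALAD values stood in the same 2 libraries. Whether they are linked was not tested.

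No globin of 8 tested was called by edgeR without the block (1 at an unadjusted p under 0.05, 1 called by DESeq2), and 4 were called with it, all lower, with a median of -0.60. The most abundant, the fetal globin HBG2, had 298 and 194 CPM in induced S34F cells, against 482 and 292 CPM in induced WT cells, and its near-identical neighbour HBG1 had 47.7 and 25.2 CPM, against 59.7 and 42.6 CPM. Adjusted p-values of HBG2 were 0.446 without and 0.0155 with the block. Reads of HBG1 and HBG2 can be shared between them by the counting.

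Of 19 tested iron genes edgeR called none without the block (7 at an unadjusted p under 0.05, 3 called by DESeq2) and 2 higher and 5 lower with it, with a median of -0.15. SLC25A37, the mitochondrial iron importer that feeds FECH, had 864 and 854 CPM in induced S34F cells, against 619 and 635 CPM in induced WT cells, with an adjusted p of 0.191 by edgeR. FTL, the ferritin light chain, had 658 and 609 CPM, against 815 and 950 CPM, with an adjusted p of 0.147. Of 10 genes that supply glycine and succinyl-CoA, SLC25A38 among them, edgeR called none without the block (6 at an unadjusted p under 0.05, 2 called by DESeq2) and 5 with it, all lower, with a median of -0.53. SHMT2, the mitochondrial enzyme that makes glycine from serine, had 168 and 268 CPM in induced S34F cells, against 342 and 587 CPM in induced WT cells, with adjusted p-values of 0.158 without and 7.04e-04 with the block, and DLD had 82.8 and 101 CPM, against 125 and 116 CPM. Within the S34F line, where induction gave calls for 1.96% of all genes, 1 gene each of the heme handling, transcription factor and glycine and succinyl-CoA lists was called without the block, ABCB10 (-1.65 ± 0.24, adjusted p of 0.0340), GFI1B (-1.59 ± 0.30, adjusted p of 0.0456) and SHMT1, the cytosolic counterpart of SHMT2 (-1.17 ± 0.20, adjusted p of 0.0381). With the block 5, 3 and 4 genes of these lists were called, all lower, against 19.2% of all genes. No gene at all was called by edgeR when either induced S34F library was left out.

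**Figure D4:**
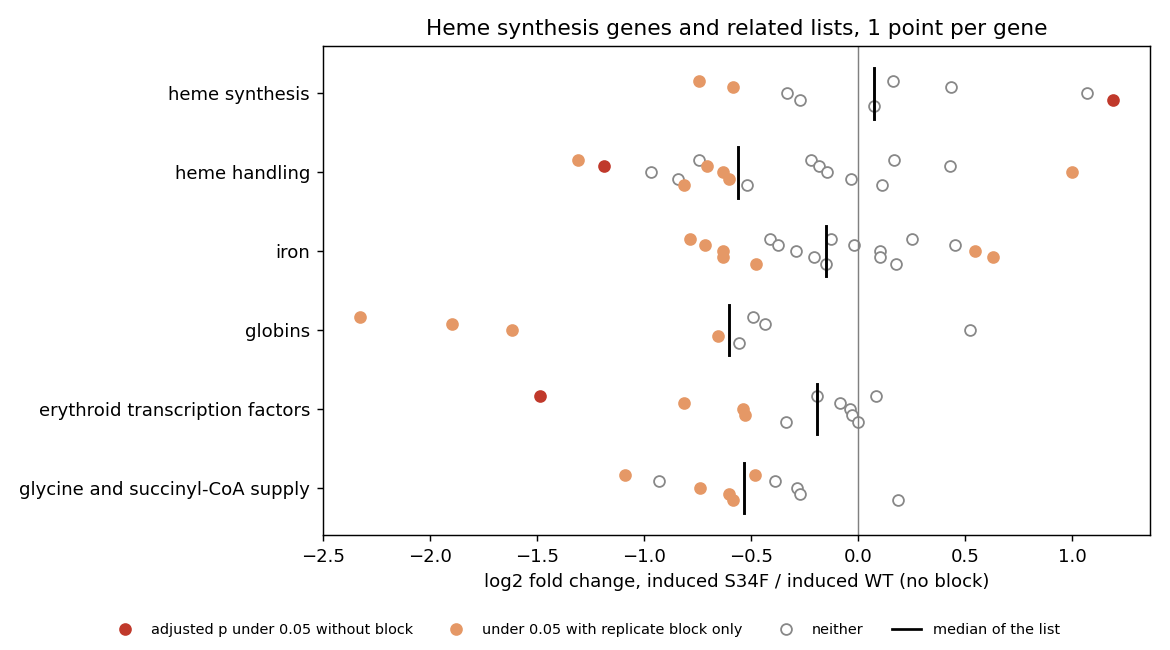
Log2 fold change of induced S34F over induced WT cells without the block, with 1 point per gene in the heme synthesis genes and 5 related lists and a bar at each list's median; red marks an adjusted p under 0.05 without the block, orange with the block only. The median is 0.07 for the heme synthesis genes and -0.60 to -0.15 for the other lists. It is 0.00 over all genes and -0.16 over protein-coding genes.

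Marker levels are given as sums, the lower library of each group first. Erythroid markers summed to 2494 and 3060 CPM in induced S34F cells, against 2563 and 3170 CPM in induced WT cells, so that these groups overlapped, while 9 of 14 tested erythroid markers had higher values in S34F, with a median log2 fold change of 0.30. Megakaryocyte markers summed to 1238 and 1691 CPM, against 1950 and 3000 CPM, monocyte and granulocyte markers to 83.1 and 97.4 CPM, against 47.8 and 67.0 CPM, and lymphoid markers to 18.2 and 21.0 CPM, against 9.26 and 10.2 CPM. Of the lymphoid sum KLRD1, named after its values were seen, held 11.2 CPM in replicate 1 and 7.03 CPM in replicate 2 of induced S34F cells, against 0.424 and 0.663 CPM in those of induced WT cells, and 3 of the 5 tested lymphoid markers had lower values in S34F (median of -0.11). Stromal and epithelial markers summed to 69.9 and 76.2 CPM, against 90.5 and 114 CPM. Most of that sum was KRT18, at 63.8 to 102 CPM over all libraries. ITGA2B, at 736 to 2057 CPM, was the largest part of the megakaryocyte sum. Both are named here after their values were seen. GP1BB, MS4A1 and KRT19 were at 0 in every library. Without the block, where 1.67% of all genes were called, edgeR called 1 marker each of the megakaryocyte (lower), monocyte and granulocyte (higher) and lymphoid lists (higher), and no erythroid marker (4 at an unadjusted p under 0.05, and DESeq2 called 2 as higher) or stromal and epithelial marker (3 at an unadjusted p under 0.05). With the block, where 22.4% of all genes were called, it called 6 of 10 megakaryocyte markers as lower, 2 of 14 erythroid markers as higher and 3 as lower, among 5 monocyte and granulocyte markers 1 as higher and 1 as lower, among 3 stromal and epithelial markers likewise, and 1 of 5 lymphoid markers as higher. Whether these differences have a part in the levels of the heme synthesis genes was not tested.

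The crosslinking tables held few counts for these genes. In eCLIP, RNA crosslinked to a protein is sequenced after immunoprecipitation of U2AF1 or U2AF2, here in induced WT cells, and freCLIP divides the U2AF1 material into a light and a heavy fraction. All S34F, Q157R and WT cells used for freCLIP were induced, with the same doxycycline dose and time as for RNA-seq. The eCLIP libraries, 3 of U2AF1 and 4 of U2AF2, include technical repeats of the same biological replicate, and their counts were pooled over both proteins. Over 7 eCLIP libraries the entries of PPOX and ALAS2 held 645 and 501 counts, SLC25A38 held 37, and the other 6 held 4 to 15. Over 17 freCLIP libraries PPOX held 561, ALAS2 388, SLC25A38 28, and the other 6 held 0 to 17. UROD, with 102875 counts in RNA-seq, held 4 in eCLIP and 17 in freCLIP, and ACTB, with 926269 in RNA-seq, held 2 and 7. Entries named as antisense transcripts took 26.1% to 29.1% of eCLIP gene counts and 25.1% to 29.1% of freCLIP gene counts, against 0.407% to 0.697% in RNA-seq. The strand setting is not given in the sources used here, so these are counts in the entries named for the genes and are not read as binding to their own RNA.

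Of the 9 genes, ALAS2 and PPOX passed the filter in freCLIP. In the light fraction ALAS2 held 18, 8 and 4 counts in S34F cells, against 7, 21 and 20 counts in WT cells, and in the heavy fraction 28, 15 and 71 counts, against 9, 14, 86 and 33 counts. The edgeR test called neither gene in S34F over WT, in the light fraction (0.337% of entries called) or the heavy fraction (0.132%). Q157R had 2 libraries in each fraction. In Q157R over WT the test called neither gene in the light fraction (7.6% of entries) or the heavy fraction (0%). Both genes stood above an unadjusted p of 0.05 in these 4 comparisons, and DESeq2 called neither. These libraries held 38415 to 730996 counts in genes. Without light Q157R replicate 2, only 1 light Q157R library remained and a different set of entries passed the filter. The median log2 fold change of light Q157R over WT over all entries was then -4.31, against -1.19 with both libraries. Calls from that fit are therefore not read as results on these genes.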

How the data were processed

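The authors deposited raw read counts per gene, 1 table each for RNA-seq, eCLIP and freCLIP. Tools named in the submitters' processing notes, with no role for each, are HTSeq, HISAT2, STAR (2.5.3a, 2.7.0f), SAMtools, DESeq2, edgeR and cutadapt; the build is GRCh38.p10. Annotation release and strand setting are not given in the sources used here. Counts in genes, 43.6% to 56.1% of RNA-seq reads, were used and the remainder left out.

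Gene IDs were matched to GENCODE 29 (58084 of 58347). Counts were tested with edgeR 4.0.16 in R 4.3.3: TMM scaling, filterByExpr (minimum count 10), robust quasi-likelihood test, 1 mean per group over all 10 RNA-seq (or 17 freCLIP) libraries, Benjamini-Hochberg adjustment over all genes and a threshold of 0.05. The test was checked on simulated counts with changes wider than most reported here and no deviation shared by replicate number. That check does not bear on calls of smaller changes. CPM are TMM-scaled, and log2 CPM used a prior count of 2. Alternatives were the replicate block, DESeq2 1.42.0, RLE scaling, no filter, only the groups compared, and leaving out each library. Like-numbered RNA-seq libraries deviated together from their group means (r of 0.211 to 0.652 over 6 pairs of groups), so the block is given where it changes a call. No replicates were identical. The 9 genes, the 5 related lists and the markers were chosen with earlier results of these data known. The text names all 9 genes, from each list up to 3 called genes or else the 2 most abundant, and for ALAS1 and ALAS2 the 5 genes most like each. Of 43 samples 34 were analysed, without the 9 TimeLapse-seq samples. Reads carry no molecular identifiers, so counts are not independent molecules.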

Additional observations from a re-analysis of the deposited data

How the results depend on the processing

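Without a block or other change, the comparison of induced S34F with induced WT cells called 1 of the 9 genes. It called 3 with the replicate block, 3 with no filter on low counts, 2 with DESeq2, 0 with only the groups compared, and 0 when any 1 library was left out. The comparison of induced S34F with induced Q157R cells called 0, but 2 with the block, 1 with no filter and 2 with DESeq2. Induction in S34F called 0, but 2 with the block, 3 with no filter and 2 with DESeq2. Its difference from induction in WT called 0, but 1 (ALAS2) with no filter, where 306 of 38670 genes were called. All RNA-seq comparisons with no filter tested 38670 genes, against 21300 in the fit without a block or other change. The light freCLIP fraction of Q157R over WT called 0 to 1 when a library was left out, and 1 without light Q157R replicate 2. That last fit kept only 1 light Q157R library. CPOX in induced S34F over induced WT cells ranged from -0.23 to 0.43 when a library was left out, and was -0.23 without induced WT replicate 1. The cause was not tested. RLE scaling changed none of these counts.

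Over all genes, induced S34F over induced WT cells gave 356 calls, against 4779 with the block, 2410 with no filter, 1659 with DESeq2 and 0 with only the groups compared or with any library left out. Induced S34F over induced Q157R gave 119, against 4261, 2135, 1332 and 0, and induction in S34F gave 418, against 4099, 2992 and 1851, and 0 with a library left out. The block changed the call of no member beyond those named in the report. Groups held 1 or 2 libraries, and values of ALAS2, CPOX, PPOX and UROD differed between replicates. The lowest count of any member was 71, for ALAS2 in uninduced WT replicate 1. How much of the spread comes from low counts was not tested.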
